A study of Homo sapiens with 6 samples.

Results

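The zinc finger genes of the cluster running from 19p13.11 to 19p12 were examined in HCT116 cells and DNMT3B KO cells. The members were a given list of gene symbols looked up in the tables of counts, 36 of the 60666 genes listed. The rule itself uses no measured value, but the list was chosen with earlier results of these data known. All 36 were found, all were annotated as protein-coding, and in chromosomal order they ran from ZNF101 to ZNF254. They occupied 4.461 Mb of chromosome 19, from position 19668796 to 24129968 (hg38, GENCODE 44), with 20 on the plus strand and 16 on the minus strand. HCT116 is a human colorectal cancer line that is wild type for DNMT3B. The DNMT3B KO cells are a derivative of it that lacks DNMT3B, the enzyme that places new methyl groups on cytosines in DNA. Neither line was treated, both were grown in the same medium, and each was represented by 3 libraries of mRNA. Only 1 knockout line was compared with its parent, so the loss of DNMT3B cannot be told apart from anything else that separates the lines. The labels do not state whether each library had its own culture, and p-values here reflect the library-to-library spread alone, which may be technical.

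Each member encodes a C2H2 zinc finger protein, in which a run of fingers, each folded round a zinc ion, reads a stretch of DNA. Most such proteins on chromosome 19 also carry a KRAB domain, through which the corepressor TRIM28 is recruited together with the histone methyltransferase SETDB1 to lay down H3K9me3 and silence the bound site. The genes arose by repeated tandem duplication and those at 19p12 multiplied mainly in primates, where many of the proteins bind transposable elements: ZNF91 is known for repressing SVA elements and ZNF93 for repressing LINE-1 elements. The bodies of zinc finger genes are themselves often covered by H3K9me3.

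The copies have kept a common layout. The canonical transcript had 4 exons in 30 of the 36 members, and the last coding exon, which holds the fingers, made up between 71.6% and 94.1% of the coding sequence. A search of the translated canonical transcripts for the C2H2 pattern found from 5 fingers in ZNF738 to 36 in ZNF208, with 31 in ZNF91 and 34 in ZNF729. The gaps between members ran from 6238 bases, between ZNF253 and ZNF93, to 335336 bases, between ZNF486 and ZNF737. Despite the shared origin, in 31 of 36 members at least 90% of the 50-base stretches of the transcripts occurred in no other gene. The exceptions were ZNF98 at 58.95%, ZNF492 at 66.74%, ZNF208 at 75.16%, ZNF738 at 81.21% and ZNF66 at 85.18%. Counts of these genes are the less certain ones, since a read from a shared stretch is divided among the genes that hold it. ZNF98 and ZNF492 shared 38.3% and 29.8% of their stretches with other members. For ZNF208, ZNF738 and ZNF66 this was 2.97%, 1.82% and 3.13%, and most of their repeated stretches occurred in genes outside the list.

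The start regions show the common origin in their letters. The following are the 250 bases before the annotated start site of 6 members, chosen because they stand for the patterns described further on: ZNF85 and ZNF493 were expressed in HCT116 cells and almost or entirely without counts in DNMT3B KO cells, ZNF675 rose, ZNF431 and ZNF91 were expressed in both lines, and ZNF208 had no count in either. Each is written 5′ to 3′ on the strand of its gene, from RefSeq on GRCh38.p14, with every CpG in capitals, since CpG is the site that DNMT3B methylates.
ZNF85, chr19:20923001-20923250, plus strand: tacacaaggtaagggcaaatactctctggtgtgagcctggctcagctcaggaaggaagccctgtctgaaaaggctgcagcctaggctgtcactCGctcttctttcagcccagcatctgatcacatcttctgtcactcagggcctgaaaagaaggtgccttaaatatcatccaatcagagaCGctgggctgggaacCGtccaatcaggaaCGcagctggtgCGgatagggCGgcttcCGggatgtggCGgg
ZNF493, chr19:21396883-21397132, plus strand: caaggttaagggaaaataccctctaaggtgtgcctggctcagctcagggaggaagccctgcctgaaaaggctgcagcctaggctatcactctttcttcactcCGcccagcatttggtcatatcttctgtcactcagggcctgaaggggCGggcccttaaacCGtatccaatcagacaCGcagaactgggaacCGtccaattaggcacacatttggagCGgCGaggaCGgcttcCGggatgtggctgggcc
ZNF675, chr19:23687213-23687462, minus strand: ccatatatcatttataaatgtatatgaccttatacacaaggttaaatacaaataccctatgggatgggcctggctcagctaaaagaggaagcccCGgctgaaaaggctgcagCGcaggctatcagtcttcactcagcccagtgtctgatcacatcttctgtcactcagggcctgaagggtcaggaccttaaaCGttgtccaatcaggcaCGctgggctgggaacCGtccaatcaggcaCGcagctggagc
ZNF431, chr19:21141790-21142039, plus strand: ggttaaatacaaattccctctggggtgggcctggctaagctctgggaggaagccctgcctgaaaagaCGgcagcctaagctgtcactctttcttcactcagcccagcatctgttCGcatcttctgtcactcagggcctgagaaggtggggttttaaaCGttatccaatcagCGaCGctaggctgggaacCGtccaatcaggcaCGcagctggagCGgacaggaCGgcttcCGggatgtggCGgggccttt
ZNF91, chr19:23395472-23395721, minus strand: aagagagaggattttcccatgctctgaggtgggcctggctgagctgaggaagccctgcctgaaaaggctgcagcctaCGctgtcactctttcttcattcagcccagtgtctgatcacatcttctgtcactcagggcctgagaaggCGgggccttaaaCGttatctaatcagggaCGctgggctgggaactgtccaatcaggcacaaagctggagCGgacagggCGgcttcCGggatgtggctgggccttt
ZNF208, chr19:22010944-22011193, minus strand: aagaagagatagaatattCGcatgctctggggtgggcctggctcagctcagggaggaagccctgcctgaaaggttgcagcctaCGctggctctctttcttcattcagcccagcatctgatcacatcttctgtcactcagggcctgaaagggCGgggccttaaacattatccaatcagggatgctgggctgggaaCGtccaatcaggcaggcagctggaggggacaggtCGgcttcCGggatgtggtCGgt
Over the 300 bases from 250 before to 50 after the start, the windows of ZNF85 and ZNF431 were 83.7% identical when aligned, those of ZNF85 and ZNF208 also 83.7%, and those of ZNF85 and ZNF493 82.0%. ZNF91 and ZNF208 shared 88.0% of the window although one was expressed and the other had no count. The sequences were printed from the reference genome, and the methylation of these CpGs was not analysed here.

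Start regions could be matched for 28 members, and those of ZNF506, ZNF253, ZNF676, ZNF729, ZNF98, ZNF99, ZNF728 and ZNF738 were not used here. Over the 378 pairs of the 28, identity ran from 56.3% to 91.0% with a median of 78.7%, the highest pair being ZNF714 and ZNF431. The 300-base windows held a median of 10 CpGs, from 8 to 18, against a median of 14 over all 35116 promoters in the same table, and their median GC content was 55.8% against 58.7%. CCAAT, searched on both strands as were all motifs, was found in 28 of 28 member windows and in 34.6% of all promoters. CCGGAA, the core of ETS factor sites, was found in 22 of 28 (78.6%) against 17.2% of all promoters, and GGGCGG, the core of SP1 sites, in 21 of 28 (75.0%) against 44.95%. The TATA letters TATAAA were found in 3 of 28 (10.7%) against 11.5%, and CGCGGC in 4 of 28 (14.3%) against 28.8%. The NRF1 and ZBTB33 motifs were found in 0 of 28 each, against 5.78% and 0.424% of all promoters. A match describes letters in the window and is not evidence of binding.

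The libraries held between 55436267 and 68274783 estimated counts. DNMT3B itself, which checks the labels, was at 38.5, 30.1 and 39.5 CPM (counts per 1000000 of TMM-scaled library size) in HCT116 replicates 1, 2 and 3 and at 2.54, 2.87 and 2.83 CPM in the DNMT3B KO replicates. The knockout libraries were all far below, with a log2 fold change of -3.71 (SE 0.15, adjusted p = 2.51e-06, edgeR); a count over the whole gene does not separate the disrupted exons from the rest. Epithelial markers were present in both lines, EPCAM at 302 ± 22.2 and 285 ± 18.9 CPM (SD, n = 3) among them, but 7 of the 11 that could be tested fell and 1, VIL1, rose. Over all 14 the summed level was 4742.5 to 5541 CPM in HCT116 libraries and 2326 to 2521 CPM in DNMT3B KO libraries, and CDX1, TFF3 and LGALS4 were under 0.1 CPM in both. Summed over the neural list, of which GFAP, SNAP25 and TUBB3 rose, the range was 139 to 145 CPM against 176 to 194 CPM, with RBFOX3 under 0.1 CPM. Of the immune and blood markers, PTPRC rose from 0.00523 ± 0.00907 to 0.274 ± 0.0534 CPM (SD, n = 3). The 8 fibroblast markers summed to between 9.98 and 19.9 CPM against between 15.4 and 18.0 CPM, with PDGFRB higher, and 5 endothelial markers to at most 2.01 CPM in any library. The fibroblast marker LUM and the B cell marker MS4A1 had no count in any library. The part of these differences in the zinc finger results was not tested.

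Most of the cluster was silent. Of the 36 members, 16 (44.4%) had no count in any of the 6 libraries, 6 had a few counts, and 14 had enough counts to be tested. An average of at least 1 CPM was reached by 13 members in HCT116 cells and by 11 in DNMT3B KO cells, while 22 members were under 0.1 CPM in both. Among the other 227 ZNF genes of chromosome 19, 31 (13.7%) had no count, and over all genes listed the share was 50.4%.

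**Figure D1:**
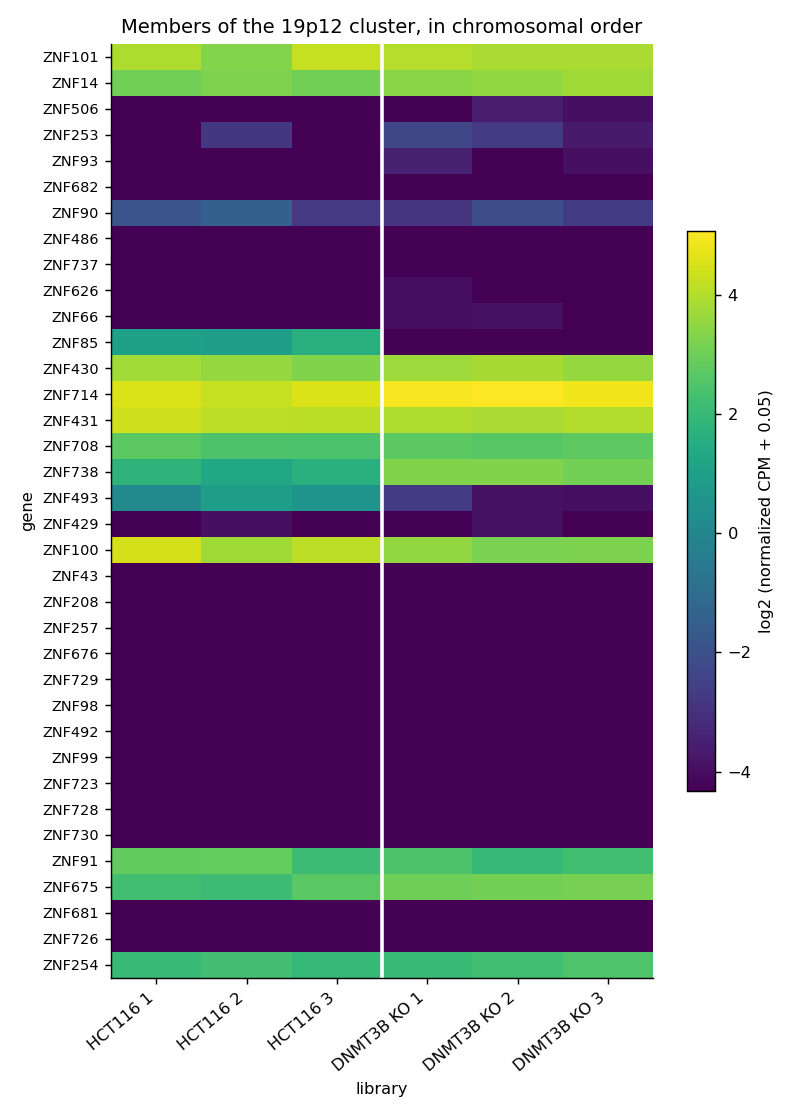
The heat map shows all 36 members in chromosomal order from top to bottom and the 6 libraries from left to right, coloured by log2 of normalised CPM plus 0.05. The block of 11 genes from ZNF43 to ZNF730 is at the lowest colour in all 6 libraries, and ZNF85 and ZNF493 change from green or blue in HCT116 to dark in DNMT3B KO.

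Expressed and silent members alternated in runs along the chromosome. The longest expressed run was formed by 7 neighbours over 0.504 Mb, ZNF85, ZNF430, ZNF714, ZNF431, ZNF708, ZNF738 and ZNF493, which together had 11746 counts in HCT116 libraries. The longest silent run was the block of 11 genes from ZNF43 to ZNF730, which covered 1.342 Mb between positions 21804946 and 23147221 and had 0 counts in both lines. The remaining members fell into shorter runs, among them 4 silent genes from ZNF506 to ZNF682, another 4 from ZNF486 to ZNF66, and the silent pair ZNF681 and ZNF726. A count of 0 allows up to 3 counts, or on average 0.0506 CPM in an HCT116 library and 0.0459 CPM in a DNMT3B KO library, a limit that covers counting error only. In bulk RNA, fewer cells with a transcript and less transcript in each cell cannot be told apart.

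The 22 silent members, meaning those too low to test, remained under 0.1 CPM on average in DNMT3B KO cells. They had 7 counts in all 3 HCT116 libraries together and 30 in the 3 DNMT3B KO libraries, and no single value was above 11. ZNF253 accounted for most of them, with 0, 6 and 0 counts in HCT116 and 11, 6 and 2 in DNMT3B KO, so that its libraries overlapped. ZNF93 had 0 counts in HCT116 and 3, 0 and 1 in DNMT3B KO, ZNF506 had 0 and then 0, 2 and 1, and ZNF66, ZNF626 and ZNF429 had at most 1 count in any library. The 16 members at 0 counts throughout were ZNF682, ZNF486, ZNF737, ZNF43, ZNF208, ZNF257, ZNF676, ZNF729, ZNF98, ZNF492, ZNF99, ZNF723, ZNF728, ZNF730, ZNF681 and ZNF726. ZNF98, ZNF492 and ZNF208, the members with the least unique sequence, are among them.

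Of the 14 tested members, 3 rose in DNMT3B KO cells (ZNF738, ZNF675 and ZNF714), 3 fell (ZNF85, ZNF493 and ZNF100) and 8 were not called at an adjusted p under 0.05 (edgeR). Called members thus made up 42.9% of those tested, where 28.1% of all 16959 tested genes were called, 12.9% of them higher and 15.1% lower. The libraries of the lines did not overlap for 8 of 14 members, 4 with all knockout libraries above and 4 with all below, against 45.9% of all tested genes. The median log2 fold change was 0.11 over the tested members and -0.00063 over all tested genes. ZNF85 and ZNF493 passed the filter on low counts only through HCT116, where they were high, and so had to differ. Both are counted among the called and the non-overlapping members, so the excess over all tested genes is not a result about the cluster. Of the other ZNF genes on chromosome 19, 153 were tested, of which 31 rose and 47 fell. That is a called share of 51.0%, above that of the members, with a median log2 fold change of 0.02.

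**Figure D2:**
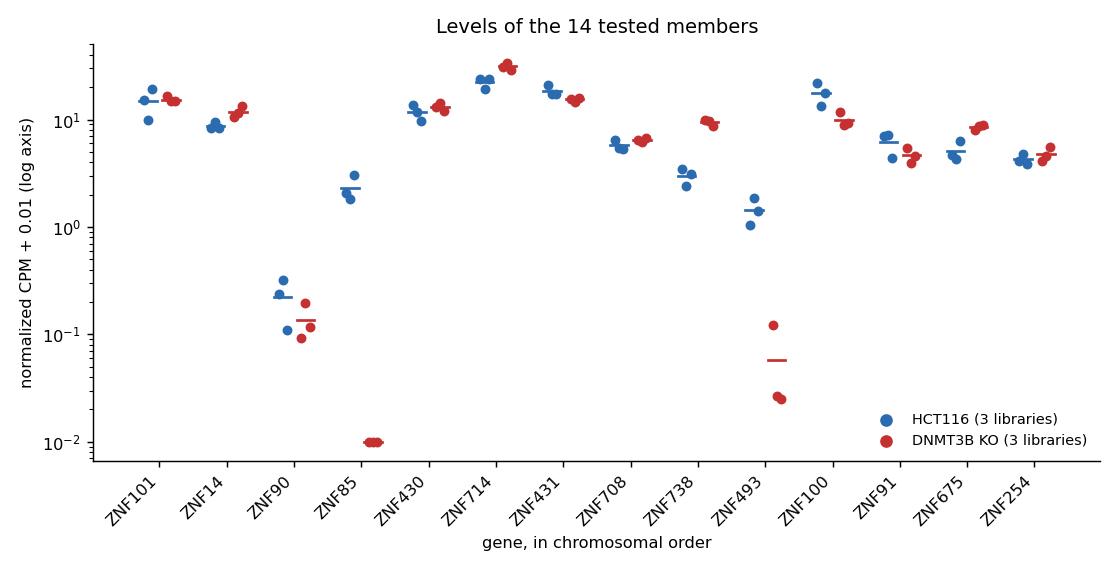
Each point is 1 library, 3 of HCT116 in blue and 3 of DNMT3B KO in red, with lines at the means; the vertical axis is normalised CPM plus 0.01 on a log scale and the genes are in chromosomal order. The colours separate widely for ZNF85, ZNF493 and ZNF738 and lie close together or overlap for most other members.

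ZNF85 (ENSG00000105750, 20923222 to 20950697, plus strand), which encodes 15 fingers, went from a low but clear level to no count at all. It was at 2.05, 1.82 and 3.02 CPM in HCT116 replicates 1, 2 and 3, from 136, 116 and 152 counts, and at 0 counts in each of the 3 DNMT3B KO libraries. All HCT116 libraries thus held counts of ZNF85 and no knockout library did. Against a floor of 3 counts per library the level was at least 50.0-fold lower in DNMT3B KO cells. The adjusted p was 0.000196 (edgeR), which is no support, since ZNF85 was tested only through its HCT116 counts. The next gene downstream, ZNF430, starts 69.9 kb away and averaged 11.7 ± 1.88 CPM in HCT116 cells and 13.1 ± 1.24 CPM in the knockout (SD, n = 3); it was not called (log2 fold change 0.16, SE 0.16, adjusted p = 0.49). No drop of the kind seen for ZNF85 was measured for this neighbouring member.

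ZNF493 (ENSG00000196268, 21397119 to 21427577, plus strand, 18 fingers), at the other end of the expressed run, was the second gene to be almost without counts. Its values were 1.04, 1.84 and 1.39 CPM in the HCT116 libraries and 0.111, 0.017 and 0.015 CPM in DNMT3B KO replicates 1, 2 and 3, the last from 8, 1 and 1 counts. All knockout libraries were below all HCT116 libraries, and replicate 1 held most of what was left. The level fell 27.5-fold, a log2 fold change of -4.78 (SE 0.63, adjusted p = 0.00104, edgeR). The size of this fall is uncertain, since the knockout mean of 0.048 CPM lies near the floor of 0.0459 CPM. As for ZNF85, the p-value is no support, since ZNF493 was tested only through its HCT116 counts. Without DNMT3B KO replicate 1 the log2 fold change was -6.30. The size of that value is not measured, since 1 count in each remaining knockout library is under the floor of 3 counts. A protein-coding gene annotated on the same strand over 22419 bases of ZNF493, ENSG00000269237, had 0 CPM in both lines. A fall from at least 1 CPM to under 0.1 CPM was seen for 2 members, ZNF85 and ZNF493, and for 27 of the 153 other tested ZNF genes on chromosome 19, and for 129 (0.761%) of all tested genes.

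ZNF738 (ENSG00000172687, 21358930 to 21388582, plus strand), which has the fewest fingers of the cluster, showed the largest rise among the tested members. It ends 8.5 kb before the start of ZNF493, on the same strand, and moved in the opposite direction. Its values were 3.45, 2.42 and 3.07 CPM in the HCT116 libraries and 9.86, 9.69 and 8.61 CPM in DNMT3B KO. The knockout libraries lay close together and well above the others, 3.15-fold on average, for a log2 fold change of 1.65 (SE 0.18, adjusted p = 0.000437). ZNF738 is also the tested member with the least unique sequence, and an unprocessed pseudogene on the same strand, ENSG00000213976, overlaps it by 4313 bases. The counts assigned to that pseudogene averaged 0.455 CPM in HCT116 cells and 0.605 CPM in the knockout, and reads of both cannot be separated further.

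The other called members changed less. ZNF714 (ENSG00000160352, 21082159 to 21125270, plus strand) was at 23.8, 19.1 and 23.9 CPM in the HCT116 libraries and 30.9, 33.6 and 29.1 CPM in DNMT3B KO, which made it the member with the most counts in both lines. All knockout libraries were higher, and the log2 fold change was 0.49 (SE 0.12, adjusted p = 0.0187). Without DNMT3B KO replicate 1 or 2 the adjusted p was 0.0641 or 0.0852. ZNF431, which starts 16753 bases after the end of ZNF714 and has the start region most like it, stood at 20.9, 17.4 and 17.2 CPM in the HCT116 libraries and 15.6, 14.7 and 15.8 CPM in DNMT3B KO. Its libraries did not overlap either, but in the other direction, and it was not called (log2 fold change -0.27, SE 0.12, adjusted p = 0.13).

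ZNF675 (ENSG00000197372, 23525631 to 23687220, minus strand), whose protein is known to bind TRAF6 and dampen its signalling, was at 4.62, 4.26 and 6.29 CPM in the HCT116 libraries and 7.93, 8.62 and 8.91 CPM in DNMT3B KO. The groups did not overlap, with HCT116 replicate 3 nearest to the knockout. The log2 fold change was 0.75 (SE 0.19, adjusted p = 0.0194), and the adjusted p was between 0.0533 and 0.085 without HCT116 replicate 1 or any one DNMT3B KO replicate. ZNF91, the SVA repressor, lies 130159 bases away on the same strand and was at 7.001, 7.10 and 4.34 CPM in the HCT116 libraries and 5.38, 3.92 and 4.60 CPM in DNMT3B KO. HCT116 replicate 3 fell among the knockout libraries, so that the lines overlapped, and ZNF91 was not called (log2 fold change -0.41, SE 0.23, adjusted p = 0.24). Without that library its adjusted p was 0.0334.

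ZNF100 (ENSG00000197020, 21722771 to 21767579, minus strand), the last expressed gene before the silent block, was at 22.03, 13.4 and 17.6 CPM in the HCT116 libraries and 11.6, 8.96 and 9.37 CPM in DNMT3B KO. The HCT116 libraries were widely spread but all above the knockout libraries. The log2 fold change was -0.82 (SE 0.20, adjusted p = 0.0175), and the adjusted p rose to 0.0684 without HCT116 replicate 1, 0.0799 without DNMT3B KO replicate 2 and 0.0759 without DNMT3B KO replicate 3. The call of ZNF738 was kept in all 12 alternatives that were run for single genes. Those of ZNF85 and ZNF493 were also kept, which is no support for them, since their passing the filter only through HCT116 fixed the difference.

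**Figure D3:**
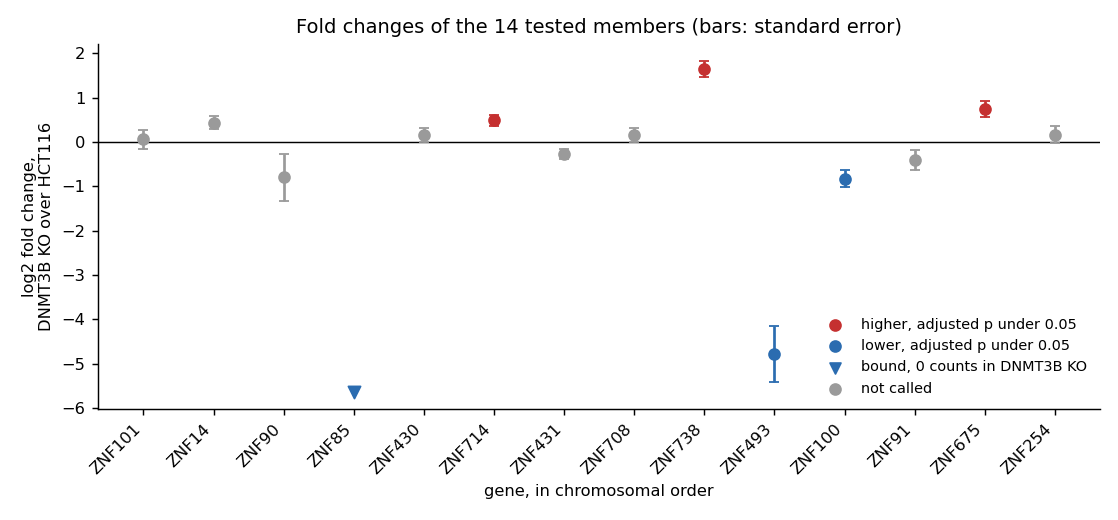
Points are log2 fold changes of DNMT3B KO over HCT116 for the 14 tested members in chromosomal order and bars are standard errors, with called genes in red (higher) or blue (lower) and the rest in grey. The triangle of ZNF85 is a bound set by the floor of 3 counts, and ZNF738 and ZNF493, next to each other, lie on opposite sides of 0. The knockout mean of ZNF493 lies near that floor, so the size of its fall is uncertain.

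The members that were not called are the remaining expressed genes. ZNF14, the second gene of the cluster after ZNF101, came nearest to a call, at 8.39, 9.56 and 8.39 CPM in the HCT116 libraries and 10.6, 11.6 and 13.4 CPM in DNMT3B KO. All knockout libraries were above, with a log2 fold change of 0.43 (SE 0.14, adjusted p = 0.057), and it was called with upper-quartile scaling (adjusted p = 0.0383), by DESeq2 (0.0239) and without HCT116 replicate 2 (0.0333). ZNF101 itself was at 15.2, 9.97 and 19.1 CPM in the HCT116 libraries and 16.5, 14.7 and 14.9 CPM in DNMT3B KO. Its knockout libraries lay inside the HCT116 range, with a log2 fold change of 0.06 (SE 0.22, adjusted p = 0.87) whose sign changed with the setting, from -0.17 to 0.29.

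ZNF430 was at 13.5, 11.8 and 9.76 CPM in the HCT116 libraries and 13.0, 14.4 and 11.9 CPM in DNMT3B KO, with overlap. ZNF708, on the minus strand between ZNF431 and ZNF738, stood at 6.44, 5.46 and 5.30 CPM and at 6.48, 6.17 and 6.66 CPM, with a log2 fold change of 0.17 (SE 0.15, adjusted p = 0.47). The lowest of its knockout libraries was below the highest HCT116 library. ZNF254, the last member, was at 4.11, 4.77 and 3.83 CPM and at 4.13, 4.60 and 5.56 CPM, with a log2 fold change of 0.17 (SE 0.19, adjusted p = 0.56), and a long non-coding RNA on the same strand, ENSG00000268362, overlapped 43973 bases of it at 0.837 and 1.22 CPM. ZNF90 was tested at a far lower level, 0.213 ± 0.108 CPM in HCT116 cells and 0.125 ± 0.053 CPM in the knockout (SD, n = 3), and was not called (adjusted p = 0.30).

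Summed over the 36 members, the level was 132.7, 109.4 and 123.3 CPM in the HCT116 libraries and 132.4, 131.4 and 128.8 CPM in DNMT3B KO. The libraries overlapped, and the ratio of the means was 1.07. The make-up of the sum differed more than its size. ZNF714 supplied 18.3% of it in HCT116 and 23.8% in DNMT3B KO, ZNF738 2.45% and 7.17%, and ZNF675 4.15% and 6.49%. ZNF100 supplied 14.5% and 7.63%, and ZNF431 15.2% and 11.7%. For 11 of the 14 tested members the SD over the 3 libraries was larger in HCT116 than in DNMT3B KO. ZNF85 and ZNF493, whose knockout counts were at or near 0, are among the 11. The share over all tested genes was not computed, so this is not a result about the cluster.

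To set the genes beside each other, levels were divided by the merged exon length, giving CPM per kb. In HCT116 cells ZNF14 was highest at 2.96 ± 0.229 CPM per kb, followed by ZNF100 at 2.70 ± 0.656, ZNF714 at 2.26 ± 0.278, ZNF101 at 2.25 ± 0.701 and ZNF430 at 1.71 ± 0.275 CPM per kb (SD, n = 3). Neighbours among these leading genes differed by less than the larger of their SDs. ZNF708 and ZNF431, at 1.33 and 1.31 CPM per kb, came next and did not differ beyond their spread, nor did ZNF675, ZNF91, ZNF254 and ZNF85 from one to the next, which ranged from 0.745 down to 0.492 CPM per kb. ZNF738 at 0.310, ZNF493 at 0.127 and ZNF90 at 0.0350 CPM per kb closed the order. With the longest transcript as the length, ZNF101 led at 3.18 CPM per kb. In DNMT3B KO cells the order began with ZNF14 at 4.001, ZNF714 at 3.17 and ZNF101 at 2.34 CPM per kb, ZNF738 reached 0.976 CPM per kb, and ZNF493 at 0.00425 and ZNF85 at 0 CPM per kb were last.

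Finger number, coding length and CpG number had similar medians in tested and untested members, while GGGCGG was found in a smaller share of the tested ones. The median number of fingers was 12.5 in the 14 tested members and 13 in the 22 others, and the median number of codons 573 and 572.5. The start regions held a median of 10 CpGs in both the 13 tested and the 15 untested members that were matched, with ranges of 9 to 18 and 8 to 16. CCGGAA was found in 9 of 13 tested and 13 of 15 untested members, and GGGCGG in 7 of 13 and 14 of 15. Pairs of 1 tested and 1 untested member shared a median of 78.7% of the window, the same as all pairs. The median was lower, 74.7%, over the 78 pairs of tested members, and 79% over the 105 pairs of untested members. These values are descriptions without a test.

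**Figure D4:**
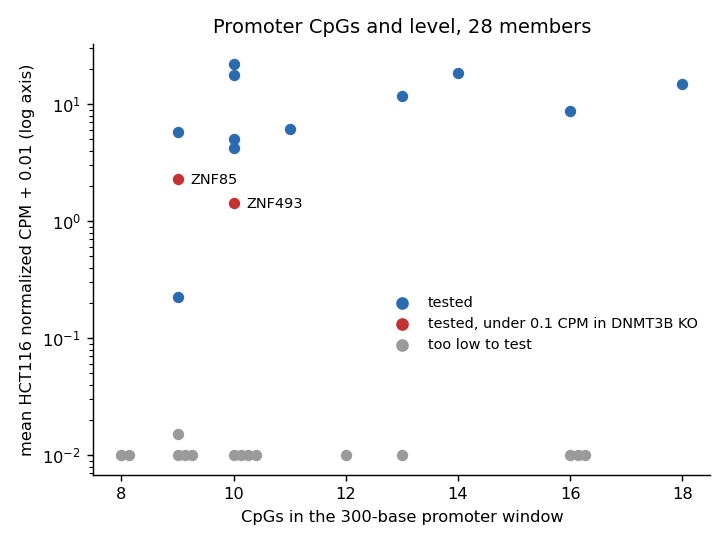
Each point is one of the 28 members with a matched start region, placed by the number of CpGs in its 300-base window (horizontal axis) and its mean HCT116 level in normalised CPM plus 0.01 (vertical log axis), with tested members in blue, ZNF85 and ZNF493 in red and untested members in grey. Both expressed and silent members are spread over most of the range of 8 to 18 CpGs, and ZNF85 and ZNF493 have 9 and 10.

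Other annotated genes within the span were mostly silent as well. Of 172, 148 had no count in any library and 9 could be tested. Of these 2 rose and 0 fell by edgeR, a called share of 22.2% beside 28.1% of all tested genes. In edgeR 0 fell at an unadjusted p under 0.05. By DESeq2, 3 other genes of the span rose and 0 fell. IPO5P1, a pseudogene between the silent block and ZNF91, averaged 1.03 ± 0.154 CPM in HCT116 cells and 2.44 ± 0.514 CPM in the knockout (SD, n = 3), and rose (log2 fold change 1.24, SE 0.26, adjusted p = 0.00966). The other gene called by edgeR, AC092329.4, lies beside IPO5P1 and was under 1 CPM in both lines. AC092329.4 was not called by edgeR without DNMT3B KO replicate 2 (adjusted p = 0.074) or 3 (0.07). ZNF724, a protein-coding gene outside the list of members, also lies between the silent block and ZNF91 and is named after its values were seen. It averaged 4.87 ± 1.41 CPM in HCT116 cells and 5.50 ± 0.742 CPM in the knockout (SD, n = 3). ZNF724 was not called (log2 fold change 0.18, SE 0.24, adjusted p = 0.63, edgeR).

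The genes that KRAB zinc finger proteins work through were all expressed. Of 31 genes listed as silencing machinery, all tested, 8 rose, 3 fell and 20 were not called, a called share of 35.5% beside 28.1% of all tested genes, and the median log2 fold change was 0.11. HDAC1, a histone deacetylase of the NuRD complex, fell from 305 ± 4.10 CPM to 164 ± 1.76 CPM (n = 3, SD; log2 fold change -0.89, SE 0.08, adjusted p = 0.000125), and MTA1, another NuRD subunit, by 0.77 on the log2 scale (adjusted p = 0.000945). MTA2, added after its values were seen, went the other way and rose by 0.43 on the log2 scale (SE 0.10, adjusted p = 0.0154, edgeR). TRIM24, a relative of TRIM28, rose by 0.68 on the log2 scale (adjusted p = 0.00133), the histone chaperone RBBP4 by 0.52 (adjusted p = 0.00298) and CHD3, a NuRD remodeller, by 0.39 (adjusted p = 0.0098). ATF7IP2, related to the SETDB1 partner ATF7IP, rose by 1.05 (adjusted p = 0.00681). TRIM28 and SETDB1 were added after their values were seen: TRIM28 was at 919 ± 193 and 856 ± 48.6 CPM (adjusted p = 0.66), while SETDB1 fell from 58.6 ± 3.00 to 47.4 ± 0.531 CPM (log2 fold change -0.31, SE 0.08, adjusted p = 0.024). The call of SETDB1 was lost in 7 of 12 alternatives, with an adjusted p of 0.075 with upper-quartile scaling, 0.057 with no filter on low counts, 0.054 with the replicate block, 0.11 without HCT116 replicate 1 and 0.085, 0.093 and 0.082 without DNMT3B KO replicates 1, 2 and 3. That of CHD3 was lost without HCT116 replicate 1 (0.054) or DNMT3B KO replicate 1 (0.055).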

How the data were processed

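Stranded mRNA libraries were sequenced as paired-end reads of 50 bases. The authors aligned them to hg38 with STAR in nf-core/rnaseq, counted reads within Ensembl 103 (GENCODE 37) transcripts with Salmon, and deposited estimated counts per gene, scaled for gene length, in 1 table per library. The strand setting of the counting is not given in the sources used here, so reads from genes that overlap on opposite strands may not be separated. Reads shared by near-identical copies were divided by Salmon.

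Estimated counts were rounded, low genes removed with filterByExpr, libraries scaled by TMM, and the 16959 remaining genes tested in edgeR 4.0.16 (R 4.3.3) by the quasi-likelihood method, with line as the only factor and Benjamini-Hochberg adjustment over all of them. Calls were made below an adjusted p of 0.05. The SE is the log2 fold change divided by the square root of F. CPM are counts per 1000000 of TMM-scaled library size. Alternatives changed the scaling, filter, threshold, replicate block, libraries and test (DESeq2 1.42.0). Limits from 0 counts are 3 counts per library and cover counting error only, since reads are not independent molecules.

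The members and gene lists were chosen with earlier results of these data known. All members are accounted for, with values per library for those of at least 1 CPM in a line; from the silencing list and the other genes of the span, at most 6 called genes of at least 1 CPM with the smallest adjusted p are named. Positions, exons and transcripts are from GENCODE 44, and fingers were counted in translations of its canonical transcripts. Promoter windows of 300 bases are from RefSeq and were compared by pairwise alignment with Biopython 1.88. One marker gene, and the summed level of its list, are not reported here.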

Additional observations from a re-analysis of the deposited data

How the results depend on the processing

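Counts of genes called between DNMT3B KO and HCT116 moved mainly when a library was left out or the threshold was tightened, and no called direction turned in any alternative. Leaving out 1 library at a time, 1 to 4 members rose and 2 to 4 fell; without DNMT3B KO replicate 1 or 2 only ZNF738 of the 3 risen members was called. Over the same fits, 3049 to 5924 of all tested genes were called, with 3109 without HCT116 replicate 1 and 3148, 3049 and 3095 without DNMT3B KO replicates 1, 2 and 3. In the silencing machinery 4 to 11 genes rose and 2 to 3 fell, with 4 rising without HCT116 replicate 1 or any one DNMT3B KO replicate, and among the other genes of the span 1 to 3 rose (1 without DNMT3B KO replicate 2 or 3) and 0 fell. The log2 fold change of DNMT3B ran from -3.84 to -3.64. Each of these fits had fewer libraries. At an adjusted p under 0.01, 1 member, 2648 genes in all, 4 genes of the silencing machinery and 1 other gene of the span rose or were called in place of 3, 4761, 8 and 2. With a filter of at least 1 CPM in 3 libraries, which tests fewer genes, 1 other gene of the span rose.

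With the replicate block, 3 members rose, 3 fell and 4214 genes were called, and the block changed no call among the members; in the silencing machinery 8 rose and 2 fell, SETDB1 (adjusted p = 0.054) and MPHOSPH8 (0.053) no longer being called. The replicate numbers shared by the lines were not treated as pairs, since the deviations of same-numbered libraries correlated at 0.0641, -0.00963 and 0.122. By DESeq2, 4 members rose, ZNF14 being added, and 3 fell. The limits set by depth are those of low members: ZNF90 and the 22 untested genes lie near or under what 3 counts give. The sum without members under 80% unique sequence could not differ, since ZNF98, ZNF492 and ZNF208 had no counts.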

Other observations

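The machinery list also held genes that set and read DNA methylation, named here after their values were seen. DNMT3A, the other de novo methyltransferase, rose from 20.9 ± 1.58 CPM to 27.6 ± 2.502 CPM (n = 3, SD; log2 fold change 0.40, SE 0.11, adjusted p = 0.0286, edgeR), with all 3 DNMT3B KO libraries above all 3 HCT116 libraries, but the call was lost when HCT116 replicate 1 was left out (adjusted p = 0.084), and likewise for each of DNMT3B KO replicates 1, 2 and 3 (0.12, 0.056 and 0.072). DNMT1, the maintenance methyltransferase, was at 307 ± 76.5 and 351 ± 29.7 CPM (adjusted p = 0.47), and UHRF1, which brings DNMT1 to hemimethylated DNA, at 170 ± 59.4 and 184 ± 9.23 CPM (adjusted p = 0.73), both with overlapping libraries.

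Of the HUSH complex, which spreads H3K9me3 over transposable elements and zinc finger genes, MPHOSPH8 rose from 50.9 ± 1.45 to 63.6 ± 3.29 CPM (log2 fold change 0.32, SE 0.08, adjusted p = 0.0214), a call lost with the replicate block (0.053) and on leaving out HCT116 replicate 1 (0.07), DNMT3B KO replicate 2 (0.079) and DNMT3B KO replicate 3 (0.098), while TASOR at 70.6 ± 8.90 and 71.8 ± 12.7 CPM and PPHLN1 at 62.5 ± 4.86 and 67.6 ± 2.22 CPM were not called (adjusted p = 0.93 and 0.38). ATRX, a chromatin remodeller found at the 3′ ends of zinc finger genes, rose by 0.33 on the log2 scale (SE 0.10, adjusted p = 0.0371), and was not called in 6 of 12 alternatives: with no filter on low counts (0.058), without HCT116 replicate 2 (0.052) or 3 (0.059), and without DNMT3B KO replicate 1 (0.12), 2 (0.086) or 3 (0.14). None of the 3 HP1 genes, CBX1, CBX3 and CBX5, was called (adjusted p = 0.11, 0.62 and 0.084, edgeR). For CBX1 and CBX5 all DNMT3B KO libraries were above all HCT116 libraries, with log2 fold changes of 0.30 (SE 0.13) and 0.51 (SE 0.19). The libraries of CBX3 overlapped (log2 fold change -0.09, SE 0.11).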
